A study of Mus musculus with 35 samples.

Results

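Interferon stimulated genes were followed as 9 gene rows, Stat2, Irf9, Irf7, Ifih1, Ifit1, Ifit3, Isg15, Oas1a and Bst2, out of 24411 genes in the count tables. The rows were chosen by name, with earlier results of these data known. Cells of the Smg6 conditional knockout (cKO) carried Smg6(fx/fx) with the Ngn3Cre transgene, in which the Neurogenin 3 promoter drives Cre in early postnatal germ cells and loxP sites flank exon 9 of Smg6, a nuclease of nonsense-mediated mRNA decay. Controls (CTRL) were littermates without the transgene, Smg6(fx/fx) or Smg6(fx/wt), so that a floxed allele was present in all animals. Adult mice of mixed C57Bl/6J and SV129 background gave pachytene spermatocytes (Spc) and round spermatids (RS), enriched by velocity sedimentation through a BSA gradient, with 3 libraries of polyadenylated RNA in each of the 4 groups. Chromatoid bodies (CB), the RNA granules of spermatids, were isolated by anti-DDX4 immunoprecipitation from pooled mice, with 3 cKO and 4 CTRL libraries of total RNA. Somatic cells of these testes, macrophages among them, were not the target of the Cre line, and enrichment by sedimentation does not remove them completely. The labels do not say whether Spc and RS libraries came from the same animals. The series' design text describes a Spc or RS sample as coming from a single mouse, while the study's methods describe several testes per isolation, so whether the spread between libraries is one between animals or between pools is not settled.

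In a cell that senses foreign or misplaced nucleic acid, interferons are secreted and bind receptors on the same and on neighbouring cells. The receptors' kinases activate STAT2, which acts with IRF9 at an interferon-stimulated response element (ISRE) in front of the target genes. Macrophages, which reside in the testis interstitium, are known for expressing many of these genes, so the macrophage genes Csf1r (the receptor of colony stimulating factor 1) and C1qa (a chain of complement C1q) were read in the same libraries.

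The deposited depth was 38129415 to 49940226 counts per Spc or RS library and 3965541 to 16699210 per CB library. Smg6 was counted at a depth-scaled level (CPM, counts per unit of TMM-scaled depth) of 104 to 180 in Spc, 133 to 217 in RS and 155 to 197 in CB, and its whole-gene count did not fall in cKO (log2 fold change 0.22, SE 0.17, edgeR quasi-likelihood test with Benjamini-Hochberg adjustment, adjusted p = 0.352 in Spc, 0.05, SE 0.16, adjusted p = 0.798 in RS). A count over the whole gene does not resolve the deleted exon, so it checks no label. All 8 pachytene markers were counted in every group, at a summed 4913 to 5931 CPM in Spc and 3192 to 5160 CPM in RS. The 6 late spermatid markers summed to 19466 to 26714 CPM in CTRL RS and 1084 to 1290 CPM in cKO RS, and the 6 round spermatid markers to 2162 to 2256 and 676 to 844 CPM. The RS fractions of the 2 genotypes thus differed in these germ cell markers.

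To show the element that most members hold, the 250 bases before and 50 after each RefSeq start (GRCm38.p6) were searched on both strands for the core GAAANNGAAA, whose reverse complement is TTTCNNTTTC. The core was present in 7 of the 9 members and in 3.99% of 27025 genes with a promoter in the same table. It was found in 14 of 28 promoters of other interferon induced effectors, 3 of 11 of nucleic acid sensors and adaptors, 3 of 9 of the interferons, 1 of 5 of ISG15 conjugation and inhibitors, 1 of 8 of antigen presentation and 0 of 8 of receptors and kinases, and in 1 of 9 promoters of the macrophage list. Matches are shown as at most 30 bases, 5′ to 3′ along the transcribed strand, with the core in capitals. The windows of Isg15, Oas1a and Bst2 held 3, 2 and 2 matches, of which 1 each is printed.
Ifit1, chr19:34640775-34640804, plus strand: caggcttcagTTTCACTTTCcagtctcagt
Ifit1, chr19:34640794-34640823, plus strand: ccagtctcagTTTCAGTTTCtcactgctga
Ifit3, chr19:34583363-34583392, plus strand: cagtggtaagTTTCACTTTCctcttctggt
Ifit3, chr19:34583397-34583426, plus strand: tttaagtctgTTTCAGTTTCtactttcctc
Isg15, chr4:156200871-156200900, minus strand: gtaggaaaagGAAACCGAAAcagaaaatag
Oas1a, chr5:120907520-120907549, minus strand: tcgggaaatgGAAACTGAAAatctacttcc
Bst2, chr8:71537577-71537606, minus strand: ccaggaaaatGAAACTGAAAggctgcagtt
Stat2, chr10:128270266-128270295, plus strand: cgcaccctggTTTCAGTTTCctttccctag
Ifih1, chr2:62646206-62646233, minus strand: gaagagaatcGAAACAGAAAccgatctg
The Ifih1 match began at position 32 after the start and so lay within the transcript, while the Oas1a match began at position -14 and the Stat2 match at position -222. No core was in the windows of Irf7 or Irf9, which says only that these letters are not there. A match is a description of the sequence and not a measured site of binding.

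Stat2 and Irf9 encode the DNA-binding partners of the interferon response. Stat2 (chr10:128270559-128292849) was counted 231, 380 and 412 times in the CTRL Spc libraries 1 to 3 and 416, 416 and 564 times in cKO Spc. In RS it was counted 57, 92 and 54 times in CTRL and 586, 353 and 508 times in cKO. Every cKO RS library thus lay far above every CTRL RS library, and after scaling the Spc groups did not overlap either but lay close together. The fitted log2 fold change was 2.29 (SE 0.28, adjusted p = 0.000167) in RS and 0.50 (SE 0.20, adjusted p = 0.109) in Spc.

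Irf9 (chr14:55603571-55610030) was counted 58, 131 and 109 times in CTRL Spc and 92, 97 and 168 times in cKO Spc, and these ranges overlapped. Its RS counts were 30, 31 and 23 in CTRL and 231, 184 and 236 in cKO, without overlap. The log2 fold change was 2.42 (SE 0.23, adjusted p = 3.84e-05) in RS and 0.30 (SE 0.30, adjusted p = 0.494) in Spc. Irf9 overlaps Rnf31 on the same strand, so reads of the 2 genes cannot be fully told apart and its values are uncertain.

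Irf7, a transcription factor that is itself induced by interferon and amplifies interferon production, lies at chr7:141262706-141266481. It was counted 12, 29 and 9 times in CTRL Spc and 33, 35 and 52 times in cKO Spc. In RS it was counted 1, 3 and 6 times in CTRL and 77, 32 and 135 times in cKO. The log2 fold change was 4.00 (SE 0.70, adjusted p = 0.00113) in RS and 1.30 (SE 0.42, adjusted p = 0.0562) in Spc, where the groups did not overlap after scaling but the test was missed.

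Ifih1 (chr2:62595798-62646255) encodes MDA5, a cytoplasmic sensor of long double-stranded RNA. Its Spc counts were 36, 46 and 48 in CTRL and 57, 38 and 57 in cKO, which overlapped. Its RS counts were 4, 9 and 9 in CTRL and 86, 34 and 125 in cKO. The log2 fold change was 2.90 (SE 0.55, adjusted p = 0.00184) in RS and 0.28 (SE 0.30, adjusted p = 0.516) in Spc.

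**Figure D1:**
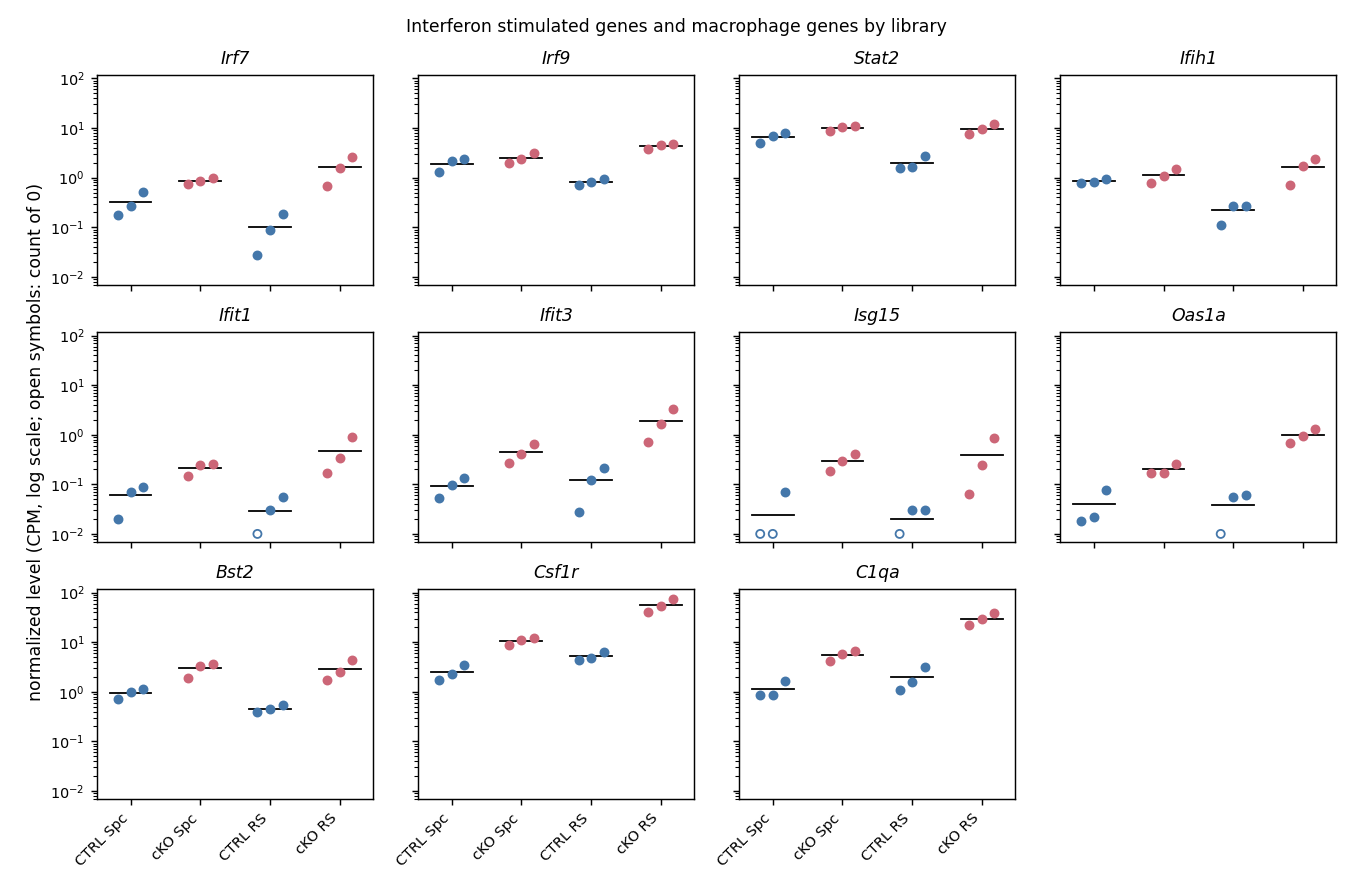
Levels of the 9 members, Csf1r and C1qa in each library in CPM on a log axis, with CTRL in blue, cKO in red and a bar at the mean of 3 libraries. Open symbols stand for a count of 0. CTRL RS had the lowest mean of 8 of the 9 members, while Csf1r and C1qa were lowest in CTRL Spc.

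Ifit1 and Ifit3 encode proteins with tetratricopeptide repeats that bind foreign RNA. Ifit3 (chr19:34583531-34588731) was counted 6, 3 and 5 times in CTRL Spc and 25, 13 and 22 times in cKO Spc. In RS it was counted 1, 4 and 7 times in CTRL and 82, 34 and 169 times in cKO. It rose in both cell types, by 2.11 (SE 0.50, adjusted p = 0.0228) in Spc and by 3.97 on the log2 scale (SE 0.74, adjusted p = 0.00167) in RS. The longest transcripts of Ifit3 and its neighbour Ifit3b were 97.8% identical over 1700 aligned bases, with an identical run of 329 bases, so that reads can be split between the 2 genes and the Ifit3 values are uncertain. Ifit3b itself was counted 1, 0 and 1 times in CTRL RS and 18, 7 and 29 times in cKO RS.

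Oas1a (chr5:120896256-120907521) encodes an oligoadenylate synthetase, which on binding double-stranded RNA makes the messenger that activates RNase L. It was counted 1, 1 and 4 times in CTRL Spc and 10, 8 and 9 times in cKO Spc, too few to be tested. In RS it was counted 2, 0 and 2 times in CTRL and 46, 33 and 69 times in cKO, and the log2 fold change was 4.57 (SE 0.63, adjusted p = 0.000312). Its near copy Oas1g (97.5% identical over 1860 aligned bases) was at 0 in all CTRL RS libraries and at 20, 11 and 18 counts in cKO RS, so the Oas1a values are likewise uncertain.

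Bst2 (chr8:71534255-71537456) encodes tetherin, a membrane protein that holds back budding viruses. Its counts were 32, 56 and 59 in CTRL Spc and 140, 89 and 180 in cKO Spc, and 16, 13 and 18 in CTRL RS and 124, 81 and 232 in cKO RS. No cKO library overlapped a CTRL library of its cell type. On the log2 scale Bst2 rose by 1.53 (SE 0.33, adjusted p = 0.0175) in Spc, just past the threshold of 1.5, and 2.66 (SE 0.41, adjusted p = 0.000605) in RS.

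Isg15 and Ifit1 stayed below the count filter (10 counts in at least 3 libraries) in both comparisons. Isg15 (chr4:156199424-156200818), a ubiquitin-like protein conjugated to other proteins, was counted 0, 4 and 0 times in CTRL Spc, 7, 14 and 22 times in cKO Spc, 0, 1 and 1 times in CTRL RS and 12, 3 and 45 times in cKO RS. With counts summed over the 3 libraries, 60 against 2 in RS gave a ratio per sequenced count of 30.6 with an exact 95% interval from 8.10 to 258. Library 3 of cKO RS gave 45 of the 60 counts, and the ratio was 11.8 (2.74 to 106) without it and 19.7 (5.23 to 167) without CTRL RS 1. Ifit1 (chr19:34640871-34650009) was counted 4, 4 and 1 times in CTRL Spc, 10, 7 and 13 times in cKO Spc, 2, 1 and 0 times in CTRL RS and 17, 8 and 46 times in cKO RS. Its RS sums of 71 against 3 gave a ratio of 24.1 (95% interval 7.92 to 120), which was 13.1 (4.00 to 67.8) without cKO RS 3 and 46.7 (8.12 to 1870) without CTRL RS 1. The Spc ratios were 11.2 (4.07 to 42.9) for Isg15, for which CTRL Spc 2 held all 4 CTRL counts, and 3.47 (1.61 to 8.31) for Ifit1. These intervals cover counting error only and not the spread between libraries.

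Genes were called where the log2 fold change reached 1.5 in either direction while the adjusted p did not exceed 0.05. In RS, 7 members passed the count filter and all 7 were called higher, against 15.1% of all tested genes and elements called higher and 10.5% called lower. Their cKO libraries all lay above the CTRL libraries, as they did for 40.2% of all features. Of these, Irf7, Ifih1, Ifit3 and Oas1a passed the filter through the cKO libraries alone and had to differ, while Stat2, Irf9 and Bst2 reached 10 counts in all 6 libraries. In Spc, 6 members were tested and 2, Ifit3 and Bst2, were called higher, against 3.27% of all features called higher and 4.84% called lower, and 4 lay above CTRL in every library, against 23.6%. Ifit3 and Irf7 passed the Spc filter through the cKO libraries alone. Neither Spc call held in all fits with 1 library left out: Bst2 lost its call without cKO Spc 1, cKO Spc 3 or CTRL Spc 1 (log2 fold change 1.38, 1.42 and 1.37), and Ifit3 without CTRL Spc 2 (adjusted p = 0.0588) or CTRL Spc 3 (adjusted p = 0.0732), and it fell below the filter without any cKO Spc library. In RS, Stat2, Irf9 and Bst2 kept their calls in all 6 such fits, with log2 fold changes of 2.14 to 2.59, 2.31 to 2.53 and 2.23 to 2.97.

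**Figure D2:**
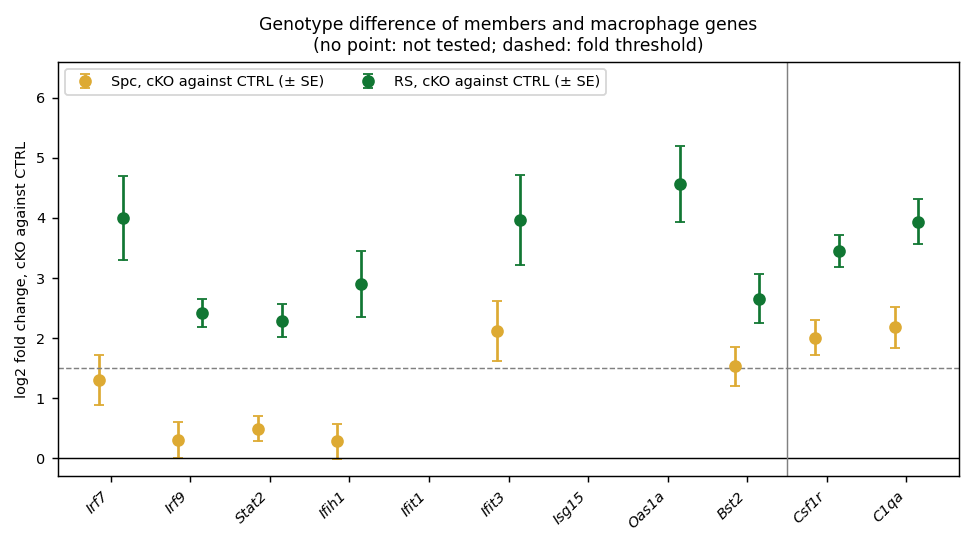
Log2 fold change of cKO against CTRL (vertical axis, ± SE of the fit) for each tested member and for Csf1r and C1qa, in Spc (yellow) and RS (green), 3 libraries a group. In RS the members lay from 2.29 to 4.57 and Csf1r and C1qa at 3.45 and 3.94, and in Spc the members lay from 0.28 to 2.11 and Csf1r and C1qa at 2.01 and 2.18.

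The difference between genotypes was itself compared between cell types with an interaction term, in which 19.4% of all features were called higher and 21.3% lower on the adjusted p alone. The effect was larger in RS than in Spc for Irf9 (log2 difference 2.01, SE 0.37, adjusted p = 0.00217), Stat2 (1.69, SE 0.36, adjusted p = 0.00452), Ifih1 (2.50, SE 0.65, adjusted p = 0.0109) and Irf7 (2.59, SE 0.87, adjusted p = 0.0342). The call of Irf7 was lost in 7 of the 12 fits with 1 library left out (adjusted p up to 0.104). For Ifit3 (1.74, SE 1.04, adjusted p = 0.194), Oas1a (2.32, SE 1.03, adjusted p = 0.0912), Bst2 (1.02, SE 0.55, adjusted p = 0.153), Ifit1 (2.06, SE 1.26, adjusted p = 0.204) and Isg15 (0.74, SE 2.01, adjusted p = 0.783) the test was not passed. Csf1r (1.32, SE 0.39, adjusted p = 0.0203) and C1qa (1.64, SE 0.53, adjusted p = 0.0302) also differed more between genotypes in RS than in Spc. The interaction was also called higher for 4 of 5 erythroid genes and for all 8 Sertoli cell genes (median log2 difference 3.11). The median of the Sertoli cell genes for cKO against CTRL was -2.02 in Spc and 1.22 in RS. All 7 Leydig cell genes had a positive interaction (median 2.43) and none was called. The part of these cells' RNA in the members' values was not tested.

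RS were next compared with Spc within a genotype. In CTRL cells Ifih1 (log2 fold change -2.08, SE 0.36, adjusted p = 0.00140) and Stat2 (-1.85, SE 0.29, adjusted p = 0.000858) were called lower, against 16.6% of all features, and 4 members were tested. Ifih1 passed the count filter through its Spc libraries alone (4, 9 and 9 counts in RS) and so had to lie lower in RS. Irf9 (-1.34, SE 0.29, adjusted p = 0.00434) and Bst2 (-1.17, SE 0.29, adjusted p = 0.00788) passed the adjusted p and not the fold. All 4 lay below Spc in every RS library, as did 41.4% of all features. Csf1r moved the other way, by 0.95 (SE 0.29, adjusted p = 0.0205), without overlap (38.6% of all features lay above Spc in every library), and C1qa gave 0.65 (SE 0.45, adjusted p = 0.217). Of 13 tested macrophage genes 3 were called higher and 1, Mrc1 (-2.23, SE 0.31, adjusted p = 0.000495), lower. The summed level of the list without Aif1 overlapped between the cell types (33.2 to 52.2 CPM in RS and 40.1 to 43.4 in Spc). Of that sum Mrc1 averaged 5.79 CPM in RS and 25.1 in Spc. Markers of other somatic cells went both ways. All 7 Leydig cell genes (median log2 fold change -5.01) and all 8 Sertoli cell genes (median -3.20) were called lower in CTRL RS. By contrast 4 of 5 erythroid (median 4.18), 3 of 4 lymphocyte, 2 of 4 peritubular myoid and 2 of 5 endothelial genes were called higher. The remaining erythroid gene, Alas2, and 1 lymphocyte gene (-2.81) were called lower. The part of these cells in the members' difference was not tested. With any CTRL Spc library left out, Ifih1 was below the count filter. The RS and Spc count columns carry different trimming names, so a difference in processing between the 2 cell types cannot be told apart from the cell type.

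In cKO cells all 9 members were tested, and Ifit3 (log2 fold change 2.04, SE 0.59, adjusted p = 0.0260) and Oas1a (2.27, SE 0.39, adjusted p = 0.00335) were called higher in RS than in Spc, against 3.09% of all features called higher and 3.69% called lower. Oas1a passed the count filter through its RS libraries (10, 8 and 9 counts in Spc) and so had to lie higher there. Irf9 was higher by 0.74 (SE 0.24, adjusted p = 0.0392), which is under the fold threshold. Stat2 (-0.10, SE 0.20, adjusted p = 0.711) and Bst2 (-0.08, SE 0.41, adjusted p = 0.892) gave values near 0. Over the same libraries Csf1r rose by 2.35 (SE 0.24, adjusted p = 0.000455) and C1qa by 2.38 (SE 0.26, adjusted p = 0.000517). There 13 of 14 macrophage, 5 of 5 erythroid and 4 of 7 lymphocyte genes were called higher, and 6 of 7 Leydig cell genes and 1 lymphocyte gene (-2.43) lower. Their part in the members' values was not tested. Ifit3 missed the test without cKO Spc 2, cKO Spc 3, cKO RS 1 or cKO RS 3, with adjusted p of 0.0555 to 0.0639.

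The order of the group means was therefore not the same for all members. Stat2 averaged 1.99 ± 0.66 CPM (SD, n = 3) in CTRL RS, 6.65 ± 1.48 in CTRL Spc, 9.68 ± 2.24 in cKO RS and 10.04 ± 1.20 in cKO Spc, and each of the last 3 groups overlapped its neighbour. Bst2 ran from 0.460 ± 0.080 in CTRL RS through 0.953 ± 0.227 in CTRL Spc to 2.89 ± 1.403 in cKO RS and 2.96 ± 0.97 in cKO Spc, with overlap between the cKO groups alone. Irf9 was 0.819 ± 0.115 in CTRL RS, 1.92 ± 0.56 in CTRL Spc, 2.53 ± 0.58 in cKO Spc and 4.36 ± 0.43 in cKO RS, with overlap between the Spc groups alone. Ifih1 was 0.218 ± 0.093 in CTRL RS, 0.851 ± 0.076 in CTRL Spc, 1.12 ± 0.35 in cKO Spc and 1.62 ± 0.84 in cKO RS, and its 3 upper groups overlapped their neighbours. Oas1a was near 0.04 in both CTRL groups, 0.199 ± 0.054 in cKO Spc and 0.982 ± 0.316 in cKO RS, with overlap between the CTRL groups alone. Csf1r gave 4 groups without overlap, from 2.48 ± 0.87 in CTRL Spc through 5.20 ± 1.12 in CTRL RS and 10.7 ± 1.8 in cKO Spc to 56.3 ± 17.4 in cKO RS.

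Most macrophage genes moved with the members, and the genes of other somatic cells did so in part. Of 14 macrophage genes, 12 were called higher and 1, Aif1, lower in cKO RS, with log2 fold changes of 3.45 (SE 0.26, adjusted p = 1.07e-05) for Csf1r and 3.94 (SE 0.38, adjusted p = 4.39e-05) for C1qa. In Spc 8 of 14 were called higher, Csf1r by 2.01 (SE 0.29, adjusted p = 0.00537) and C1qa by 2.18 (SE 0.34, adjusted p = 0.00649), while Aif1 (-1.46, SE 0.43, adjusted p = 0.0442) and Mrc1 (-1.20, SE 0.30, adjusted p = 0.0270) were lower at the adjusted p. No macrophage gene was at 0 throughout a group. Aif1 took most of the list's summed level in the CTRL groups and went the other way, at 434 to 535 CPM in CTRL RS and 71.1 to 102 in cKO RS, so the sum is given without it as well. The other 13 genes summed to 33.2 to 52.2 CPM in CTRL RS, 246 to 417 in cKO RS, 40.1 to 43.4 in CTRL Spc and 54.2 to 84.4 in cKO Spc. Mrc1 was a large part of the CTRL Spc sum, at a mean of 25.1 CPM, and averaged 11.7 in cKO Spc. With Aif1 the sums were 467 to 587, 348 to 488, 117 to 190 and 105 to 121 CPM.

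In the same RS comparison 6 of 6 tested Leydig cell genes and 4 of 5 erythroid genes were called higher. Sertoli cell genes were higher at the adjusted p in 7 of 8 (median log2 fold change 1.22) and called in 1, with sums of 61.4 to 77.9 CPM in CTRL RS and 90.3 to 246 in cKO RS. Of the others, 1 of 5 peritubular myoid genes rose, 3 of 7 lymphocyte genes rose and 2 fell, 1 of 2 plasmacytoid dendritic cell genes and 1 of 5 endothelial genes fell, and none of 4 neutrophil genes reached the filter. Of the germ cell lists, 1 of 8 pachytene genes rose, and 3 of 6 round spermatid and 6 of 6 late spermatid genes fell. In Spc the Sertoli cell genes went against the members, with all 8 called lower in cKO (median -2.02) and sums of 321 to 880 CPM in CTRL and 181 to 269 in cKO. There 2 of 7 Leydig cell genes were called higher, and all 6 late spermatid genes were called lower (median -3.08). Within cKO RS, library 3 held the highest count of 8 members (7 by CPM) and library 2 the lowest of all 9 on both scales, and library 3 also held the highest and library 2 the lowest counts of Csf1r (2684, 1900 and 3902 in libraries 1 to 3) and of C1qa (1446, 1042 and 1989). In bulk RNA, a change in the number of cells of a type and a change in RNA per cell cannot be told apart. The part of macrophages in the members' change was not tested beyond the ratios and the covariate fits given next.

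Each member was read per 100 counts of Csf1r in the same library. Stat2 stood at 149, 292 and 474 in CTRL Spc, 97.0, 99.0 and 87.0 in cKO Spc, 32.4, 64.3 and 25.5 in CTRL RS and 21.8, 18.6 and 13.02 in cKO RS. Within a cell type these ranges did not overlap, and Stat2 per Csf1r count was lower in cKO than in CTRL in both cell types. Irf9 stood at 37.4 to 125 in CTRL Spc, 21.4 to 25.9 in cKO Spc, 10.8 to 21.7 in CTRL RS and 6.05 to 9.68 in cKO RS. Oas1a stood at 1.14, 0 and 0.943 in CTRL RS and at 1.71, 1.74 and 1.77 in cKO RS, and so was higher in cKO RS per Csf1r count, from 4 counts in CTRL.

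The difference of the mean log2 ratio to Csf1r between cKO RS and CTRL RS was -1.12 for Stat2, -1.02 for Irf9, -0.90 for Bst2 and 1.08 for Oas1a, each without overlap. The other 5 members overlapped, with differences from -0.67 for Ifih1 to 0.48 for Irf7. In an exact two-sided permutation test 3 against 3 libraries cannot go below p = 0.1, which these 4 members reached (adjusted p = 0.225 over members and both references), so no ratio can be called. In Spc the ratio to Csf1r was lower in cKO without overlap for Ifih1 (-1.80), Irf9 (-1.73) and Stat2 (-1.54), each at p = 0.1 in the exact permutation test (adjusted p = 0.3). With C1qa as the reference, 8 of 9 members had a negative difference in RS and 8 of 9 in Spc. Csf1r and C1qa were themselves higher in cKO in both cell types, so an unchanged gene would also have a negative difference. The share of all genes with a negative difference was not computed. The members' direction depended on the reference. Against the summed 13 macrophage genes without Aif1, 3 of 9 members had a negative difference in Spc (median 0.81). There 5 were higher and 1, Ifih1, lower in cKO without overlap. In that sum Mrc1 averaged 25.1 CPM in CTRL Spc and 11.7 in cKO Spc, and so went against Csf1r and C1qa. A sum without Mrc1 was not tested. In RS 4 of 9 were negative (median 0.078), with Oas1a higher (1.51) and Bst2 lower (-0.46) without overlap. Against the sum with Aif1 all 9 were positive in both (medians 1.91 in Spc and 3.44 in RS).

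Between cell types all 9 ratios to Csf1r were lower in RS than in Spc in both genotypes, with a median difference of -2.11 in CTRL and -1.65 in cKO on the log2 scale. Csf1r itself was higher in RS (2.48 and 5.20 CPM in CTRL Spc and RS, 10.7 and 56.3 in cKO). The ratio of an unchanged gene would fall as well, and the share of all genes with a lower ratio was not computed. The ranges were apart for 6 members in CTRL and 7 in cKO, at p = 0.1 each in the exact permutation test (adjusted p = 0.18 and 0.129). Against the 13 macrophage genes without Aif1, 6 of 9 members had a negative difference in CTRL and 8 of 9 in cKO (medians -0.99 and -1.47). Of that sum Mrc1 averaged 25.1 CPM in CTRL Spc and 5.79 in CTRL RS. Ratios share the Csf1r count as denominator, so the members are not independent in this respect.

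**Figure D3:**
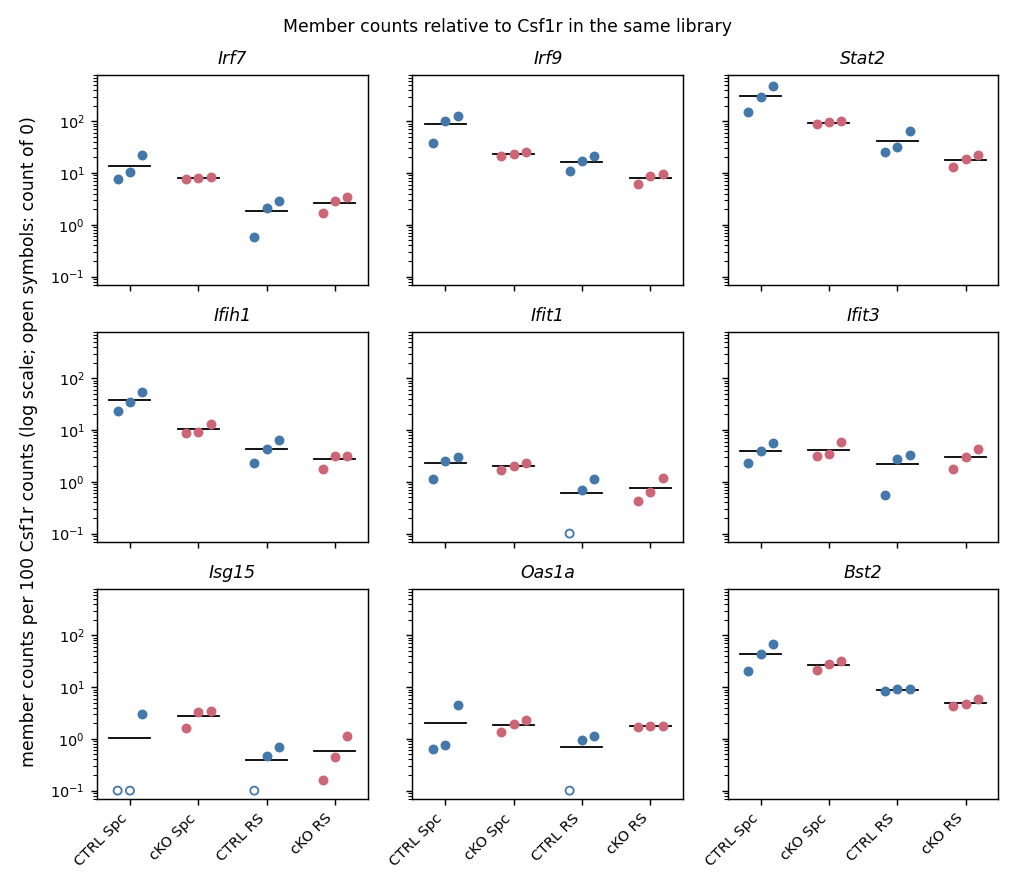
Member counts per 100 Csf1r counts of the same library (log axis) for the 4 groups of 3 libraries, with CTRL in blue, cKO in red, bars at the means and open symbols for a count of 0. Stat2 ran from 149 to 474 in CTRL Spc down to 13.02 to 21.8 in cKO RS.

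The result of a fit with macrophage RNA as a covariate depended on Aif1. The covariate was the log2 of the list's summed counts per deposited depth, without TMM scaling. With the whole list, all 7 members kept their call in RS (log2 fold change 2.12 for Bst2 to 4.18 for Oas1a) and neither call held in Spc. With the list without Aif1, an alternative chosen after the data were seen, no member was called in RS, Spc or the interaction. In that RS fit Stat2 had a log2 fold change of 2.24 (adjusted p = 0.642) and Irf9 of 2.21 (adjusted p = 0.547), Oas1a was at -0.10 and Ifih1, Ifit3, Irf7 and Bst2 were between -5.55 and -2.81. The 13-gene sum did not overlap between the genotypes in RS or in Spc, so that covariate and genotype cannot be told apart in either set of 6 libraries.

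Of 88 further genes of the pathway, grouped by role in lists chosen for it, 75 were tested in RS, and 44 were called higher and 1 lower, beside 15.1% and 10.5% of all features. Of the 44, 31 had passed the count filter through the cKO libraries alone and so had to lie higher, and among the 43 genes that passed it in both genotypes 13 were called higher and 1 lower. In Spc 13 of 71 were called higher and none lower, beside 3.27% and 4.84%, and 4 of these had passed through cKO alone, while 9 of the 61 genes that passed in both genotypes were called. Leaving out 1 library lowered the genes called to as few as 24 in RS (without cKO RS 3, where fewer genes pass the filter) and 5 in Spc (without CTRL Spc 3), and with the covariate without Aif1 none was called in either. The median log2 fold change of the tested pathway genes was 1.92 in RS and 0.42 in Spc, beside 0.10 and -0.01 for all features. The interferon genes themselves were nearly uncounted, with 46 counts over 9 genes and 3 libraries in cKO RS, 1 in CTRL RS, 55 in cKO Spc and 12 in CTRL Spc. Ifng, which encodes interferon gamma, held 20 of the 46 counts in cKO RS, of which 19 came from library 3, and was at 0 in CTRL RS. Ifnl2, an interferon lambda, held another 20, with 9, 1 and 10 counts in cKO RS, 0 in all CTRL RS libraries, 14, 9 and 16 in cKO Spc and 0, 1 and 5 in CTRL Spc. Ifnb1 was at 1 count in cKO Spc and at 0 in the other Spc and RS groups.

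Among receptors and kinases, 4 of 10 were called higher in cKO RS and none in cKO Spc, and for this and the lists that follow the share of all features called higher was 15.1% in RS and 3.27% in Spc. They were Ifnar2 (log2 fold change 3.72, SE 0.48), a chain of the type I interferon receptor, Il10rb (2.72, SE 0.32), which pairs with the interferon lambda receptor, the kinase gene Jak2 (2.09, SE 0.22) and Ifngr1 (1.92, SE 0.30), a chain of the interferon gamma receptor. Among nucleic acid sensors and adaptors, 8 of 16 rose in RS, with Tlr7, an endosomal sensor of single-stranded RNA, at 3.85 (SE 0.43) and Zbp1, a sensor of Z-form nucleic acid, at 3.82 (SE 0.60). Ifnar2, Tlr7 and Zbp1 passed the RS filter through cKO alone. In Spc 2 of 16 rose, Tmem173, which encodes STING (1.80, SE 0.28), and Tlr7 (1.56, SE 0.33), which again passed through cKO alone.

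Other interferon induced effectors rose in 23 of 34 tested genes in RS, and 1, Isg20, fell by 1.82 on the log2 scale. Ifitm2 (4.39, SE 0.54) and Ifitm3 (4.28, SE 0.50), which block virus entry, and the oligoadenylate synthetase gene Oas2 (4.33, SE 0.44) were among them. In Spc 8 of 29 rose, led by the chemokine gene Cxcl10 (2.55, SE 0.51) and by Ifitm3 (2.36, SE 0.34). Of the genes for ISG15 conjugation and for inhibitors of the pathway, 3 of 5 rose in RS, the activating enzyme gene Uba7 (2.79, SE 0.46), the conjugating enzyme gene Ube2l6 (3.50, SE 0.53) and the inhibitor gene Socs3 (3.66, SE 0.45), and 0 of 6 in Spc. In that Spc list 3 had an adjusted p under the threshold with a smaller fold. Antigen presentation genes rose in 6 of 10 in RS, with the peptide transporter genes Tap1 (4.31, SE 0.56) and Tap2 (4.15, SE 0.67) foremost, and in 3 of 10 in Spc, of which the immunoproteasome gene Psmb8 (2.42, SE 0.48) had the largest fold. Of the genes named here, Ifitm2, Ifitm3, Oas2, Uba7, Ube2l6, Tap1 and Tap2 in RS and Psmb8 in Spc passed the filter through cKO alone, so their direction was fixed by it.

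**Figure D4:**
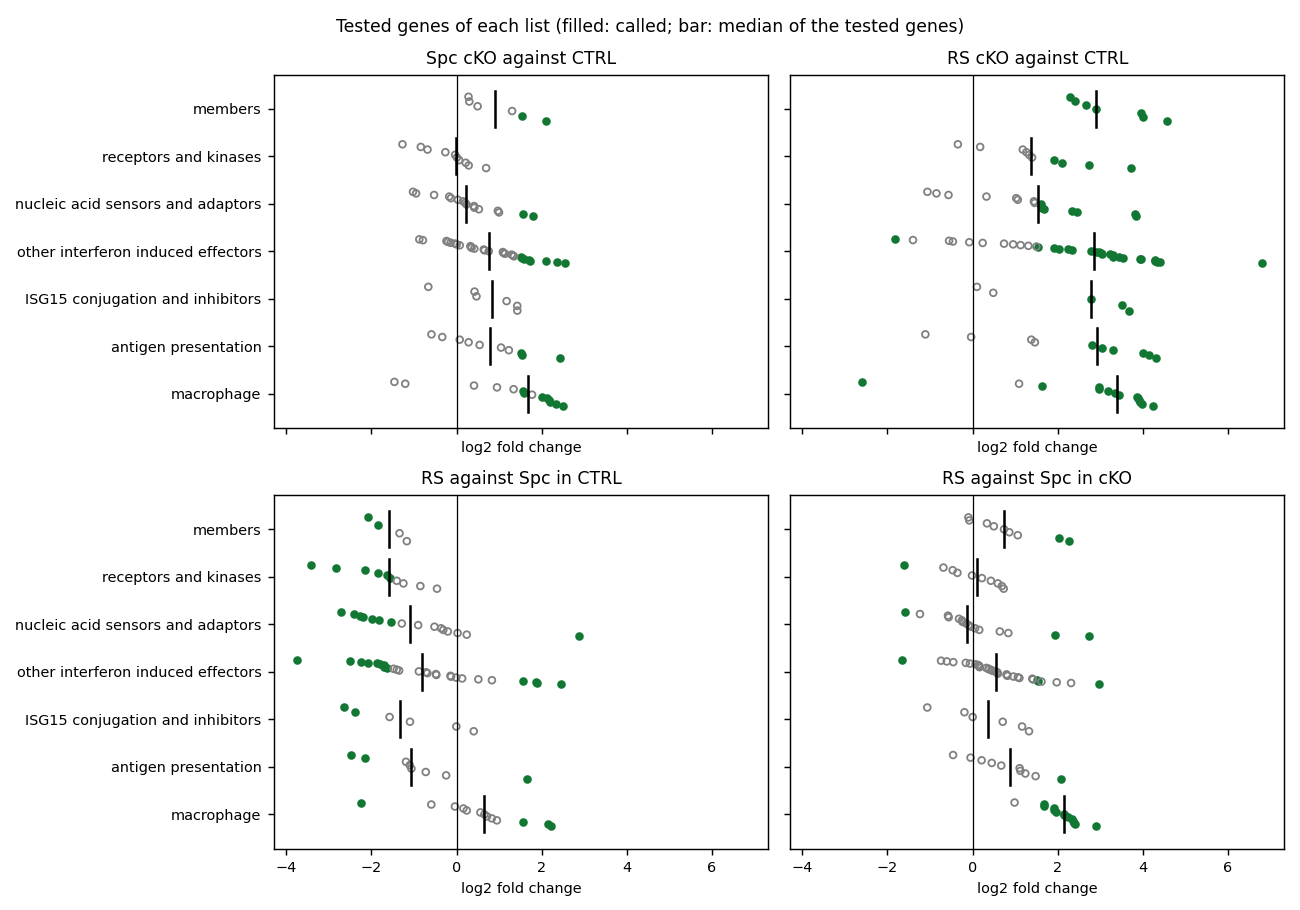
Log2 fold changes (horizontal axis) of the tested genes of each list in 4 comparisons, with filled points for called genes and a bar at the list's median. The members' median was 2.90 in RS for cKO against CTRL and 0.90 in Spc, beside 3.40 and 1.68 for the macrophage list, and in CTRL the members' median for RS against Spc was -1.59 beside 0.65 for the macrophage list.

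Between CTRL cell types, 27 of 68 pathway genes were called lower in RS and 6 higher, beside 16.6% and 15.9% of all features. Of these, 14 of the 27 passed the filter through Spc alone and 2 of the 6 through RS alone, among them Ifnar2 and Tlr9, and among the 42 genes that passed in both cell types 13 were called lower and 4 higher. Receptors and kinases fell in 6 of 10 genes, with Ifnar2 at -3.41 (SE 0.41) and the kinase gene Tyk2 at -2.15 (SE 0.11), and the adaptor gene Myd88 and the transcription factor gene Irf3 fell by 2.42 (SE 0.15) and 2.27 (SE 0.13) on the log2 scale. Tlr9, an endosomal sensor of DNA, was higher in RS by 2.89 (SE 0.47). In cKO cells 6 of 77 were called higher in RS and 3 lower, beside 3.09% and 3.69% of all features, with Oas2 at 2.97 (SE 0.54) and Tyk2 at -1.62 (SE 0.16). Of the 6, 3 passed the filter through RS alone, Oas2 among them. Among the 68 genes that passed in both cell types 3 were called higher. In the interaction of genotype and cell type, 36 of 78 pathway genes were called higher and 2 lower, beside 19.4% and 21.3% of all features. The comparisons share their libraries and are given side by side.

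The genes outside these lists with a profile nearest to the members' mean over the 12 Spc and RS libraries were Gsn, which encodes the actin-severing protein gelsolin, Cyp27a1, a sterol hydroxylase, Lamb1, a laminin chain, Col6a1, a collagen chain, and Myh9, a non-muscle myosin. Their root mean square differences from the members' mean of centred log2 CPM were 0.169, 0.205, 0.217, 0.287 and 0.295, out of 14738 genes compared. Csf1r and C1qa were at 0.973 and 1.02 by the same measure, and the members themselves at 0.37 for Bst2 to 0.92 for Oas1a. Each member is part of the mean it was measured against, which lowers its value, so the 2 ranges are not on equal terms. The libraries share depth and cell composition over these genes.

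In CB the members were hardly counted. Stat2 was counted 24, 42 and 79 times in cKO libraries 2, 3 and 4 and 64, 13, 21 and 48 times in CTRL libraries 1, 2, 3 and 5. Irf9 was counted 7, 3 and 15 times in cKO and 10, 9, 4 and 15 times in CTRL. The other 7 members were counted at most 19 times in any CB library, Bst2 with 0, 3 and 19 in cKO and 1, 2, 1 and 2 in CTRL, and were not tested.

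Stat2 was higher in cKO CB by 1.49 on the log2 scale (SE 0.44, adjusted p = 0.0207), just under the fold threshold, and its scaled ranges overlapped. Irf9 gave 0.82 (SE 0.43, adjusted p = 0.162), with scaled ranges that did not overlap, as for 16.3% of all features. No member was called, against 5.06% of all features called higher and 5.56% called lower. At an adjusted p of at most 0.05 with any fold, 1 of the 2 tested members passed in CB, against 15.4% of all features. Csf1r was higher by 2.66 (SE 0.60, adjusted p = 0.00471), with 11, 65 and 133 counts in cKO and 18, 11, 27 and 32 in CTRL, and the 13 macrophage genes without Aif1 summed to 11.8 to 65.5 CPM in cKO and 9.33 to 15.6 in CTRL. Leydig cell genes were called higher in 6 of 6. On the CPM scale cKO CB library 3 was highest for 6 members and library 4 for 3, with Csf1r at 20.1 and 16.3 CPM, and library 2 was lowest for 7, with Csf1r at 1.93 CPM. Of the pathway genes 8 of 40 tested were called higher in CB. H2-K1 (1.54, SE 0.23) and H2-D1 (2.12, SE 0.41), the class I antigen presentation chains, and Uba7 (2.68, SE 0.48) were among them. Of the 8, 3 passed the filter through cKO alone, Uba7 among them, and of the 25 genes that passed in both groups 3 were called higher. The column names give the group of each CB library and not its animals.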

How the data were processed

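RNA of 12 Spc and RS libraries and 7 CB libraries was analysed, with groups taken from the labels. The authors trimmed reads with cutadapt 2.8, aligned them with STAR to GRCm38 (version 2.7.1a in the submitters' processing notes, another in the study's methods) and deposited TEtranscripts tables of whole-number counts for 24411 genes and 1146 elements, and transcript tables of expected counts, which were rounded and used as an alternative. Reads came from polyadenylated RNA for Spc and RS and from total RNA without rRNA removal for CB. Here edgeR 4.0.16 (TMM, quasi-likelihood test) in R 4.3.3 was fitted to all genes and elements with 10 counts in at least 3 libraries, Benjamini-Hochberg adjusted over all of them, and tested on simulated data. The interaction used the adjusted p alone. Levels in CPM were TMM-scaled over the 12 Spc and RS libraries, or over the CB libraries. Ratios had 0.5 added to both counts before taking logs. Alternatives were DESeq2 1.42.0, library size, no filter, transcript counts, replicate block, macrophage covariate and each library left out. Loci are from GENCODE vM21. Named pathway genes are at most the 4 largest called folds per list with a mean of at least 10 counts. Isg20, Aif1, Mrc1, Alas2, Ifng, Ifnl2, Ifnb1, Ifit3b and Oas1g were named after their values were seen. The members and lists were chosen with earlier results of these data known. Libraries of a group are separate samples by their labels, no pair was a duplicate, and p-values measure the spread between these libraries. Small RNA tables were not used here.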

Additional observations from a re-analysis of the deposited data

Results flagged for a closer look

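The genotype difference differed between RS and Spc by the interaction test for 4 of 9 tested members, beside 19.4% of all features called higher and 21.3% lower. They were Irf9 (log2 difference 2.01), Stat2 (1.69), Ifih1 (2.50) and Irf7 (2.59), all larger in RS, and the call of Irf7 was lost in 7 of 12 fits with 1 library left out. Csf1r and C1qa were called in the same direction (1.32 and 1.64). So were 4 of 5 erythroid genes and all 8 Sertoli cell genes (median 3.11). Between genotypes the latter went opposite ways, at a median of -2.02 in Spc and 1.22 in RS. All 5 erythroid and all 7 Leydig cell genes had a positive interaction, though no Leydig cell gene was called. The part of macrophages and these other cells in the members' differences was not tested apart from the macrophage covariate fits. In CTRL CB the Ifit1 level of 1 library stood apart from the other 3 (gap over range 0.963), at 1 to 3 counts a library, and chance flags about 1 in 20 such groups.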

How the results depend on the processing

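In RS all 7 member calls were made again with DESeq2, scaling by library size alone, transcript counts and the replicate block. Without a count filter 9 members were called in RS. Isg15 was then also called higher in Spc (log2 fold change 3.32), and Irf7 lower in RS than in Spc in CTRL (-1.81). In CB, 1 member was called with DESeq2, transcript counts or the macrophage covariate and 3 without the filter, where 18 pathway genes were called in place of 8. Scaling by library size alone called 4 members between CTRL cell types in place of 2, moved the median of all features from 0.10 to 0.65 in RS, from -0.05 to -0.47 between CTRL cell types and from -0.12 to 0.52 in the interaction, and gave 0.057 for Stat2 and 0.073 for Bst2 between cKO cell types.

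With the macrophage covariate, members called were 0 in Spc, 0 between CTRL and 0 between cKO cell types and 2 in the interaction, and pathway genes called were 5, 0, 0 and 19. Its log2 values turned in sign for Irf9 -0.23 in Spc, Irf9 0.56 between CTRL cell types, Ifit1 -7.79, Ifit3 -6.22, Isg15 -13.04, Irf7 -6.13, Oas1a -1.27 and Ifih1 -6.02 between cKO cell types, and Ifit3 -0.20 and Isg15 -1.13 in the interaction. With the covariate without Aif1, chosen after the data were seen, members called were 0 in Spc, RS and the interaction and 1 in each comparison of cell types, and pathway genes called were 0 in Spc, RS, CB and the interaction, 7 between CTRL and 16 between cKO cell types. Its values turned for Irf9 -0.43 and Ifih1 -0.36 in Spc, Ifit3 -5.55, Irf7 -4.80, Oas1a -0.10, Ifih1 -3.69 and Bst2 -2.81 in RS, Ifit1 -4.42, Ifit3 -3.21, Isg15 -5.64, Irf7 -3.00, Irf9 -0.48 and Ifih1 -3.40 between cKO cell types and Ifit1 -3.68, Ifit3 -4.30, Isg15 -6.50, Irf7 -2.36, Oas1a -0.66, Ifih1 -1.70 and Bst2 -3.33 in the interaction. The whole list's sum did not overlap between Spc and RS (117 to 190 and 467 to 587 CPM in CTRL, 105 to 121 and 348 to 488 in cKO). Covariate and cell type thus cannot be told apart in either comparison of cell types. In cKO the same holds for the 13-gene sum (54.2 to 84.4 CPM in Spc and 246 to 417 in RS). The cause of the turned signs was not tested.

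The members' median log2 ratio difference to Csf1r and C1qa was -0.56 and -0.72 in Spc, -0.35 and -0.96 in RS, -0.67 and -0.86 in CB, -2.11 and -1.71 between CTRL and -1.65 and -1.70 between cKO cell types. Against the summed macrophage list it was 1.91, 3.44, 2.01, -2.94 and -1.15, and against that list without Aif1 it was 0.81, 0.078, -0.16, -0.99 and -1.47.

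In no comparison did every same-numbered pair of libraries deviate together (correlations of 0.14, -0.20 and 0.33 in Spc, -0.12, -0.18 and 0.07 in RS, -0.15, -0.09 and -0.28 between CTRL cell types and -0.09, 0.60 and 0.30 between cKO cell types), so the numbers were not taken to pair samples. With the replicate block 1 member was called in Spc, where Bst2 stood at 1.49, and no other member call changed. No paired analysis was possible for CB because its columns map to groups alone.

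With each library left out, members called ranged from 0 to 2 in Spc, 3 to 7 in RS (where 3 members were tested without any cKO library), 0 to 1 in CB, 1 to 2 in each comparison of cell types and 3 to 4 in the interaction. Pathway genes called ranged from 5 to 14, 24 to 44, 3 to 11, 18 to 32 between CTRL, 4 to 12 between cKO cell types and 29 to 45. The ratio medians ranged in RS from -0.88 to 0.31 for Csf1r, where leaving out cKO RS 2 gave 0.31 and leaving out CTRL RS 2 gave 0.054, and from -1.48 to -0.27 for C1qa, and in CB from -1.29 to -0.48 and from -1.58 to -0.61. Between cKO cell types Stat2 ranged from -0.25 to 0.061, Bst2 from -0.50 to 0.19 and Isg15 from -0.96 to 0.84, and in the interaction Isg15 ranged from -2.61 to 1.27. Members with under 10 counts a library are limited by depth.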
